A study of Mus musculus with 6 samples.

Results

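The 10 genes described here encode immune checkpoint receptors, their ligands and Ido1. They were chosen by name, as the rows of the 6-library count table with the symbols Pdcd1, Ctla4, Havcr2, Lag3, Tigit, Cd274, Pdcd1lg2, Cd80, Cd86 and Ido1, and all 10 were found among the 24067 genes of the table. The libraries were made from whole tongue with tumour of C57BL/6 mice about 34 weeks old, 3 of them labelled wild type for HuR (WT) and 3 labelled as its knockout (KO). Mice of both groups had received 4-nitroquinoline 1-oxide, a carcinogen that damages DNA, for 16 weeks, followed by 12 weeks of waiting, so no library shows an unexposed tongue. HuR, the product of Elavl1, is an RNA-binding protein of AU-rich elements. Which cells or exons the knockout affects is not given in the sources used here. The question was which of the checkpoint transcripts differed between the 2 labels.

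Checkpoint receptors are surface proteins of activated T cells that lower the response of the cell when they bind a ligand on another cell. PD-1 (Pdcd1) binds PD-L1 (Cd274) and PD-L2 (Pdcd1lg2), and CTLA-4 competes with the co-stimulatory receptor CD28 for CD80 and CD86 on antigen-presenting cells. TIM-3 (Havcr2), LAG-3 and TIGIT are further inhibitory receptors, and Ido1 breaks down tryptophan, which restrains T cells. PD-L1 is induced by interferon gamma and is made by tumour cells, keratinocytes and myeloid cells, so transcripts of the receptors and of the ligands in a whole tongue can come from different cells.

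Because HuR binds AU-rich elements, the annotated 3′ untranslated regions (GENCODE M21, GRCm38, the longest annotated region of each gene) were searched on the transcript strand for the pentamer ATTTA, a core of such elements. At least 1 pentamer was present in 6 of the 10 genes, against 68.5% of 14367 tested genes with an annotated region. Cd274 held 11 pentamers in 2683 bases, Cd80 5 in 1896, Ctla4 3 in 1115, Pdcd1lg2 2 in 669, Ido1 2 in 266 and Havcr2 1 in 1809. Per kilobase Ido1 was densest (7.52), before Cd274 (4.10), Pdcd1lg2 (2.99), Ctla4 (2.69), Cd80 (2.64) and Havcr2 (0.553). The median over the tested genes was 1.25 per kilobase. None lay in the regions of Lag3 (81 bases), Tigit (134 bases), Pdcd1 (1000 bases) or Cd86 (1493 bases). The longer motif TTATTTATT was found only in Cd274 among the 10, at the very end of its annotated region, and in 7.83% of the tested genes. Below, 1 stretch per gene is shown (and a second for Cd274) to set the ligand with the most pentamers beside members with fewer, with ATTTA in capitals. The second Cd274 stretch has TTATTTATT in capitals instead.
Cd274 (chr19:29387194-29387223, plus strand): tttttATTTAatgtatggatATTTAtgctg
Cd274, 3′ end (chr19:29388074-29388095, plus strand): ataaatatttTTATTTATTaaa
Cd80 (chr16:38495037-38495066, plus strand): catagacaagctaATTTAaaatgcttttaa
Havcr2 (chr11:46481226-46481255, plus strand): tactggcaaagtactttgagcatATTTAaa
Ctla4 (chr1:60914870-60914899, plus strand): taagcatactacaATTTAaagctaaggagc
Pdcd1lg2 (chr19:29470873-29470902, plus strand): tgtcaatagagttATTTAtagccctcattt
Ido1 (chr8:24584218-24584247, minus strand): atcaagctgaactATTTAatgatattaaaa
A match describes these letters only, and no binding was measured.

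Library totals ran from 29543352 to 51520707 counts, and levels are given in CPM (read counts after TMM scaling for library size). A level of 1 CPM stood for 25.6 to 53.0 counts. Values of the 3 libraries of a label are listed in the order of replicates 1, 2 and 3. A positive log2 fold change means a higher level under the KO label, and ± is its standard error unless SD is given. Elavl1, the targeted gene, had no lower level under the KO label. Its level was 65.0, 59.3 and 78.4 CPM under the KO label and 61.7, 55.8 and 48.0 CPM under the WT label (log2 fold change 0.29 ± 0.15 SE, edgeR adjusted p = 0.180). Groups are therefore called by their labels only. Xist, the transcript of the inactive X chromosome, stood at 1.24, 1271 and 1104 CPM under the KO label and at 1.00, 0.625 and 2.50 CPM under the WT label. By Xist and 4 Y-linked genes, 2 libraries labelled KO (replicates 2 and 3) read as female and the other 4 as male, so sex is in part confounded with the label. Genes of other tissue moved with the label too. The 10 skeletal muscle marker genes took 4.03 to 5.55% of counts under the KO label and 7.03 to 10.9% under the WT label, and the 10 keratinocyte genes 4.55 to 5.95% and 1.64 to 3.31%. In bulk tissue, more cells of a type and more RNA per cell cannot be told apart.

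Lag3 was the only one of the 10 genes that passed the test. It was 2.56-fold higher in the libraries labelled KO. The other receptors had higher means there as well, but their differences did not pass, and for Pdcd1, Havcr2 and Tigit WT replicate 1 stood above at least 1 library labelled KO. Cd80 and Cd86 were higher in every library labelled KO than in any labelled WT without passing, and Cd274, the most abundant member, stood at nearly equal levels. Of the 9 genes that passed the filter on low counts, 1 was called higher and 0 lower by edgeR at an adjusted p under 0.05 (4 at an unadjusted p under 0.05, all higher). Over all 15903 genes tested, 4.81% were called higher, 7.43% lower and 12.2% in either direction, and 18.2% were higher at an unadjusted p under 0.05. Levels did not overlap between the labels for 5 of the 10 genes, all higher in the libraries labelled KO, against 44.1% of all genes tested in either direction and 22.0% in that direction. The 5 include Pdcd1lg2, which did not pass the filter and is outside the genes tested. Among tested members these were 2 of 5 receptors and 2 of the 4 other genes. The median log2 fold change was 0.84 over the 9 genes and 0.02 over all genes tested.

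**Figure D1:**
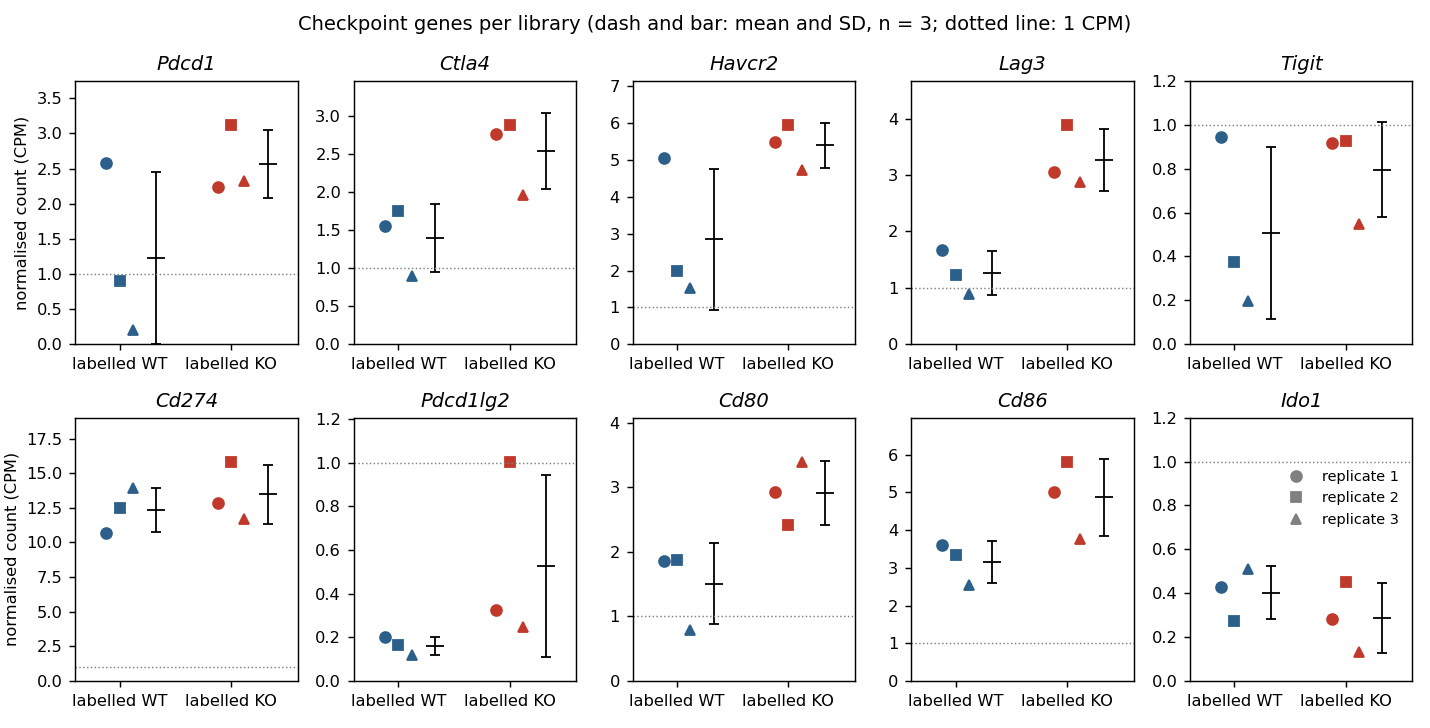
Normalised counts (CPM, vertical axis) of the 10 genes in each library, in blue for libraries labelled WT and red for those labelled KO, with a symbol for each replicate number. Dashes with bars give the mean and SD of 3 libraries, and the dotted line marks 1 CPM. Lag3 runs from 0.899 to 1.66 CPM in the libraries labelled WT and from 2.87 to 3.89 CPM in those labelled KO.

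LAG-3 is a CD4-like receptor of activated and exhausted T cells that binds MHC class II. Lag3 (identifier 16768, chromosome 6, 124904359 to 124912434 in GRCm38) stood at 3.05, 3.89 and 2.87 CPM under the KO label, from 140, 147 and 152 counts, and at 1.66, 1.23 and 0.899 CPM under the WT label, from 58, 59 and 23 counts. The lowest library labelled KO lay well above the highest labelled WT. The means were 3.27 ± 0.544 and 1.26 ± 0.383 CPM (SD, n = 3), and the log2 fold change reached 1.36 ± 0.28, with a 95% interval of 0.71 to 2.01, a fold of 1.63 to 4.02 (edgeR adjusted p = 0.0354). The call held without WT replicate 1 and was lost without any other single library. The log2 fold change stayed between 1.18 and 1.61 when a single library was left out, but the edgeR adjusted p was 0.0530 to 0.134 without any one of the 3 libraries labelled KO, WT replicate 2 or WT replicate 3, and 0.00700 without WT replicate 1. With sex in the model it was 1.26 ± 0.40 (edgeR adjusted p = 0.191), and with the mean of the muscle list 0.79 ± 0.43 (edgeR adjusted p = 0.994).

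CTLA-4 is held by regulatory and activated T cells. Ctla4 (identifier 12477, chromosome 1, 60909025 to 60915832) stood at 2.77, 2.88 and 1.96 CPM under the KO label and at 1.55, 1.75 and 0.899 CPM under the WT label. The groups did not overlap, by a margin between 1.75 and 1.96 CPM. The log2 fold change of 0.84 ± 0.31 (interval 0.13 to 1.55) had an edgeR adjusted p of 0.0915, and it was positive under each alternative tried. Foxp3, the defining factor of regulatory T cells, stood at 1.74, 1.96 and 1.59 CPM and at 1.72, 0.938 and 1.33 CPM in the same order (0.41 ± 0.29, edgeR adjusted p = 0.312). Of the 4 regulatory T cell genes 0 were called and 3 had positive log2 fold changes. Ikzf2 was lower in every library labelled KO than in any labelled WT (-0.48 ± 0.16, edgeR adjusted p = 0.0793). The 4 genes summed to 17.6 to 20.3 CPM under the KO label and 20.1 to 22.8 CPM under the WT label, with overlap. Most of that sum in each library came from Ikzf2. It stood at 12.5, 11.1 and 11.1 CPM under the KO label and at 13.0, 17.7 and 17.5 CPM under the WT label.

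PD-1 marks T cells after antigen contact. Pdcd1 (identifier 18566, chromosome 1, 94038305 to 94052553) had 103, 118 and 123 counts under the KO label and 90, 43 and 5 counts under the WT label, or 2.24, 3.12 and 2.32 CPM against 2.58, 0.896 and 0.195 CPM. WT replicate 1 stood above 2 of the 3 libraries labelled KO, and WT replicate 3 had few counts. Its log2 fold change of 1.04 ± 0.65 (interval -0.47 to 2.55) had an edgeR adjusted p of 0.264.

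TIM-3 is present on T cells and also on macrophages and dendritic cells. Havcr2 (identifier 171285, chromosome 11, 46454931 to 46481255) stood at 5.49, 5.95 and 4.74 CPM under the KO label and at 5.05, 1.98 and 1.52 CPM under the WT label. As with Pdcd1, WT replicate 1 lay within the range of the libraries labelled KO while the other libraries labelled WT were low. At 0.91 ± 0.41 (interval -0.04 to 1.87), its log2 fold change had an edgeR adjusted p of 0.143.

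TIGIT is a receptor of T and NK cells that binds the nectin-like protein PVR. Tigit (identifier 100043314, chromosome 16, 43626137 to 43665125) lay under 1 CPM in all 6 libraries, at 0.915, 0.926 and 0.547 CPM under the KO label and 0.946, 0.375 and 0.195 CPM under the WT label. Its highest library was labelled WT, and WT replicate 3 rested on 5 counts. Its log2 fold change of 0.62 ± 0.53 (interval -0.59 to 1.84) had an edgeR adjusted p of 0.399.

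Leaving out WT replicate 1 brought Pdcd1 (log2 fold change 2.12), Havcr2 (1.62) and Tigit (1.41) past the threshold beside Lag3 (1.61). Their edgeR adjusted p-values were then 0.0175, 0.00437, 0.0498 and 0.00700. In that fit 5844 of all genes were called, so the gain was not limited to the checkpoint genes. WT replicate 1 was also the library labelled WT with the lowest muscle share (7.03% of counts) and the highest keratinocyte share (3.31%). With the mean of the muscle list in the model, Pdcd1, Havcr2 and Tigit stood at -0.41 ± 0.76, -0.22 ± 0.41 and -0.94 ± 0.55 (edgeR adjusted p = 0.994 for each). The signs were negative, but Pdcd1 and Havcr2 lay within their standard error of 0. Muscle shares did not overlap between the labels, so this fit can hardly separate the label from muscle content. No direction is read from it.

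**Figure D2:**
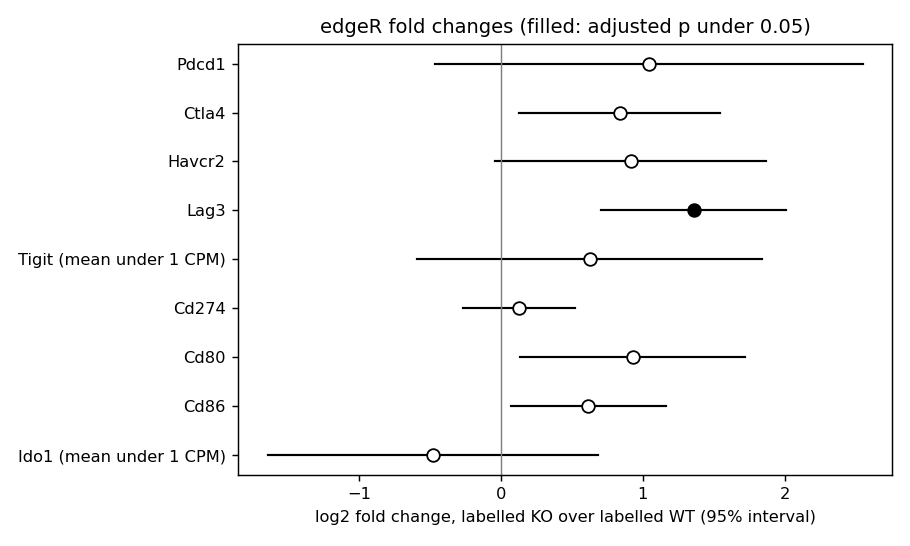
Log2 fold changes from edgeR (horizontal axis, labelled KO over labelled WT) with 95% intervals for the 9 genes tested. The filled point passed an adjusted p under 0.05. Lag3 stands at 1.36, Cd274 has the narrowest interval (-0.27 to 0.52), and Ido1 alone lies below 0.

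Among the ligands, Cd274 was the most abundant. PD-L1, its product, engages PD-1. Cd274 (identifier 60533, chromosome 19, 29362107 to 29388095) stood at 12.9, 15.8 and 11.7 CPM under the KO label and at 10.7, 12.5 and 13.9 CPM under the WT label, from 356 to 621 counts. The groups overlapped, with KO replicate 2 above every library labelled WT and WT replicate 1 below every library labelled KO. The means were 13.5 ± 2.13 and 12.4 ± 1.61 CPM (SD, n = 3), and the log2 fold change of 0.12 ± 0.17 (edgeR adjusted p = 0.609) had an interval of -0.27 to 0.52, a fold of 0.829 to 1.43. A change larger than that in either direction lies outside the interval. Cd274 is the member with the 11 ATTTA pentamers, of which stretches are shown above, and Lag3, which rose, has none in its 81 annotated bases. No relation between pentamers and fold changes was tested. Zfp36, which encodes tristetraprolin, a protein that binds AU-rich elements and promotes decay, rose (49.1, 37.5 and 52.1 CPM under the WT label, and 72.9, 75.2 and 62.4 CPM under the KO label; 0.60 ± 0.15, edgeR adjusted p = 0.0448).

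Pdcd1lg2 (identifier 58205, chromosome 19, 29410919 to 29472927), the neighbour of Cd274 that encodes PD-L2, was close to the limit of detection. It had 15, 38 and 13 counts under the KO label and 7, 8 and 3 counts under the WT label, or 0.327, 1.01 and 0.245 CPM against 0.201, 0.167 and 0.117 CPM. KO replicate 2 held more than the other 2 libraries labelled KO together. The gene did not pass the filter on low counts and so had no test in the fit. Without that filter the log2 fold change was 1.63 ± 0.62 (edgeR adjusted p = 0.108). In a separate fit with the filter but without KO replicate 2, the gene passed the filter. Its log2 fold change there was 0.78 ± 0.48 (edgeR adjusted p = 0.308).

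CD80 and CD86 are the B7 proteins of antigen-presenting cells that bind both CD28 and CTLA-4. Cd80 (identifier 12519, chromosome 16, 38457430 to 38495958) stood at 2.92, 2.41 and 3.40 CPM under the KO label and at 1.86, 1.88 and 0.782 CPM under the WT label. Its log2 fold change of 0.93 ± 0.34 (interval 0.14 to 1.72) had an edgeR adjusted p of 0.0933. Every library labelled KO was higher than every library labelled WT. DESeq2 called Cd80 higher (0.92 ± 0.36, DESeq2 adjusted p = 0.0434), in a fit that called 4288 of 16266 genes.

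Cd86 (identifier 12524, chromosome 16, 36568956 to 36666158) stood at 5.01, 5.82 and 3.77 CPM under the KO label and at 3.61, 3.34 and 2.54 CPM under the WT label. Again the groups did not overlap, and the log2 fold change of 0.61 ± 0.24 (interval 0.07 to 1.16) had an edgeR adjusted p of 0.102. With the muscle mean in the model it was 0.10 ± 0.38 for Cd86 and 0.62 ± 0.57 for Cd80.

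Ido1 (identifier 15930, chromosome 8, 24584133 to 24596952) encodes an enzyme that breaks down tryptophan. It was the only member tested with a lower mean in the libraries labelled KO, and lay under 1 CPM in all 6. It had 13, 17 and 7 counts under the KO label and 15, 13 and 13 counts under the WT label, or 0.283, 0.450 and 0.132 CPM against 0.430, 0.271 and 0.508 CPM. The groups overlapped (-0.48 ± 0.50, interval -1.64 to 0.68, edgeR adjusted p = 0.497).

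Per kilobase of annotated exon (GENCODE M21), Cd274 ranked first in the mean over 6 libraries, at 3.57 CPM per kb, with its lowest library (2.95) above the highest library of Cd86 (2.29). Cd86 (1.58), Havcr2 (1.51 CPM per kb), Lag3 (1.13), Ctla4 (1.02), Pdcd1 (0.981), Tigit (0.708) and Cd80 (0.596) followed. Ido1 (0.189) and Pdcd1lg2 (0.175) were lowest. From Cd86 downward the ranges of each pair of neighbours over the 6 libraries overlapped, although Havcr2 was above Lag3 in all 6 libraries. Cd80, with a longer annotated transcript, had more counts than Tigit but a lower level per length.

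The receptors were set against T cell transcripts, since they are made by few cells of a tongue. Cd3e, a defining T cell gene, stood at 1.70, 2.91 and 1.96 CPM under the KO label and at 1.75, 0.751 and 0.430 CPM under the WT label (1.15 ± 0.48, edgeR adjusted p = 0.120). All 10 T cell genes had positive log2 fold changes, with a median of 1.08, and 2 of them passed. These were Cd8b1 (1.88 ± 0.34, edgeR adjusted p = 0.0325), a chain of the CD8 co-receptor, and Cd6 (1.23 ± 0.33, edgeR adjusted p = 0.0496), a T cell surface receptor, both named after their values were seen. The summed level of the 10 T cell genes was 39.1 to 59.3 CPM in the libraries labelled KO and 23.2 to 38.9 CPM in those labelled WT (exact permutation p = 0.1, 2-sided, the smallest that 3 against 3 can give). No T cell gene was at 0 in any library. The 8 genes of cytotoxic T and NK cells, which can also hold Lag3, Tigit and Havcr2, summed to 6.97 to 9.52 CPM and to 1.80 to 6.54 CPM under the KO and WT labels, and 0 of 6 tested passed (4 at an unadjusted p under 0.05). The 4 neutrophil genes found summed to 578 to 1874 CPM and to 12.5 to 341 CPM, most of it from S100a8 and S100a9 in each library. The sum therefore mostly follows these genes and is not a measure of neutrophil number. Neither S100a8 nor S100a9 passed (edgeR adjusted p = 0.139 and 0.0768). The 2 called genes of this list were Csf3r (1.28 ± 0.30, edgeR adjusted p = 0.0409) and Cxcr2 (1.72 ± 0.33, edgeR adjusted p = 0.0325). The part of the difference in the cytotoxic or the neutrophil list sums in the receptor levels was not tested. Against the sum of the 10 T cell genes, Lag3 was 7.80, 6.56 and 6.92% under the KO label and 4.27, 5.29 and 3.25% under the WT label, without overlap. Pdcd1, Ctla4, Havcr2 and Tigit overlapped. Between 42.0 and 69.0% of that sum came from Cd5 alone. Without Cd5, a denominator chosen after seeing the data, Lag3 overlapped too (14.1, 11.3 and 11.9% against 8.36, 11.6 and 10.5%).

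The ratios of the receptors depended on the denominator. Cd3e rested on 78, 110 and 104 counts under the KO label and on 61, 36 and 11 counts under the WT label. Against Cd3e alone, Lag3 was 179, 134 and 146% under the KO label and 95.1, 164 and 209% under the WT label. The ratio of its means was 0.981, close to 1. Every receptor overlapped between the labels against Cd3e. The ratio of KO over WT means moved from 1.13 to 0.682 for Ctla4, from 1.32 to 0.848 for Havcr2, from 1.10 to 0.759 for Tigit and from 1.48 to 1.14 for Pdcd1 when Cd3e replaced the list. With the mean of the T cell list as a term of the model, a fit added after seeing the data, Lag3 stood at 0.66 ± 0.37 and Ctla4 at 0.41 (edgeR adjusted p = 0.999 for each), and 0 genes were called in all (before adjustment, 310 were higher and 319 lower at p under 0.05).

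**Figure D3:**
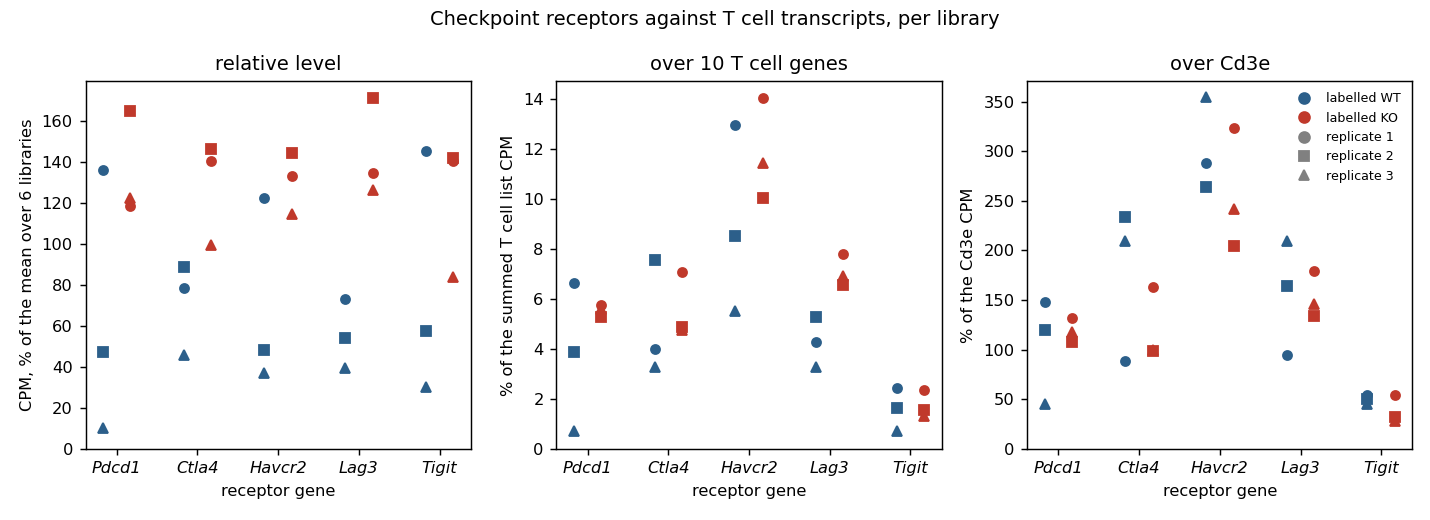
The 5 receptor genes per library, blue for labelled WT and red for labelled KO. The left panel gives CPM as a percentage of the gene's mean over 6 libraries, the middle panel percentages of the summed CPM of 10 T cell genes, and the right panel percentages of Cd3e. Lag3 separates the labels in the left and middle panels and not in the right one, where WT replicate 3 is its highest library.

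Cd80 and Cd86 were set against macrophage and dendritic cell genes in the same way. The 9 macrophage and monocyte genes found in the table summed to 157 to 203 CPM in the libraries labelled KO and 168 to 186 CPM in those labelled WT (exact permutation p = 0.8, 2-sided). Cd68, a defining macrophage gene, stood at 10.9, 11.1 and 9.21 CPM and at 12.0, 9.44 and 10.9 CPM in the same order (-0.05 ± 0.16, edgeR adjusted p = 0.826). Against Cd68, Cd80 was 26.7, 21.8 and 36.9% under the KO label and 15.6, 19.9 and 7.14% under the WT label. Cd86 was 45.9, 52.6 and 41.0% and 30.2, 35.3 and 23.2%. Neither overlapped, and neither overlapped against the summed macrophage and dendritic cell genes (without Epcam). The ratios of the means there were 1.88 for Cd80 and 1.45 for Cd86. Both denominators differed little between the labels, and their levels overlapped. The same direction over both therefore mostly repeats the difference in CPM of these ligands, and does not separate it from cell content. Cd274 overlapped over both, with ratios of 1.02 and 1.11, and Havcr2 had ratios of 1.81 and 2.02, without overlap against Cd68 only. Of the 9 macrophage and monocyte genes 1 was called higher and 5 had positive log2 fold changes. The called gene was Cd14 (0.85 ± 0.23, edgeR adjusted p = 0.0485), a co-receptor for bacterial lipopolysaccharide, named after its value was seen. Of the 10 dendritic and Langerhans cell genes 0 were called by edgeR (4 at an unadjusted p under 0.05) and 7 had positive log2 fold changes. These 10 genes summed to 59.5 to 66.7 CPM under the KO label and to 40.4 to 60.2 CPM under the WT label, with overlap. The part of each cell type in the ligand levels was not tested.

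Of 76 tested genes in 6 related lists, 5 rose and 2 fell, together 9.21% against 12.2% of all genes tested, and the median log2 fold change was 0.28. Among 24 partner ligands and receptors 3 rose and 0 fell. Ceacam1, a ligand of TIM-3, rose from 12.0, 12.2 and 8.68 CPM under the WT label to 22.2, 16.0 and 22.9 CPM under the KO label (0.89 ± 0.20, edgeR adjusted p = 0.0374). Lgals3, which encodes galectin-3, a ligand of LAG-3, rose by 0.71 ± 0.17 (edgeR adjusted p = 0.0409), from 139 to 174 CPM in the libraries labelled WT to 210 to 288 CPM in those labelled KO. Sirpa, the myeloid receptor of CD47, rose by 0.44 ± 0.12 (edgeR adjusted p = 0.0487). Both Ceacam1 and Lgals3 are also made by epithelial cells, whose keratin transcripts were higher in the same libraries, and the part of that difference was not tested.

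In the interferon gamma route to PD-L1, 1 of 15 tested genes rose and 1 fell. Cxcl9, a chemokine induced by interferon gamma that attracts T cells, stood at 19.5, 44.8 and 24.3 CPM under the KO label and at 14.6, 8.99 and 6.29 CPM under the WT label (1.57 ± 0.38, edgeR adjusted p = 0.0425). Ifngr2, a chain of the interferon gamma receptor, fell from 47.1, 55.5 and 69.3 CPM under the WT label to 30.1, 35.3 and 36.9 CPM under the KO label (-0.75 ± 0.16, edgeR adjusted p = 0.0371). Ifng itself did not pass the filter on low counts, at 0.174, 0.450 and 0.302 CPM under the KO label and 0.172, 0.125 and 0.117 CPM under the WT label. The lowest library labelled KO and the highest labelled WT were nearly equal.

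Of 10 tested genes of tryptophan and kynurenine metabolism 0 rose and 1 fell. This was Kyat3 (listed in the table as Ccbl2), a kynurenine aminotransferase, with -0.62 ± 0.16 (edgeR adjusted p = 0.0486). Among 10 tested TNF family co-stimulators 0 passed by edgeR (2 at an unadjusted p under 0.05). The smallest adjusted p-values there belonged to Tnfrsf9, the receptor 4-1BB of activated T cells (1.45 ± 0.49, edgeR adjusted p = 0.0754), and Tnfsf8, the ligand of CD30 (1.10 ± 0.39, edgeR adjusted p = 0.0832). Among 10 genes of receptor signalling in T cells 0 passed (2 at an unadjusted p under 0.05), with Nfatc1 at -0.39 ± 0.15 (edgeR adjusted p = 0.104) and Ptpn6, the SHP-1 phosphatase, at 0.43 ± 0.18 (edgeR adjusted p = 0.125). Nfatc1 and Ptpn6 are not limited to T cells. Among 7 regulators of AU-rich elements 1, Zfp36, rose and 0 fell. DESeq2 called 13 genes of the 6 lists, beside 4288 of 16266 genes in all, and limma-voom called 7.

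**Figure D4:**
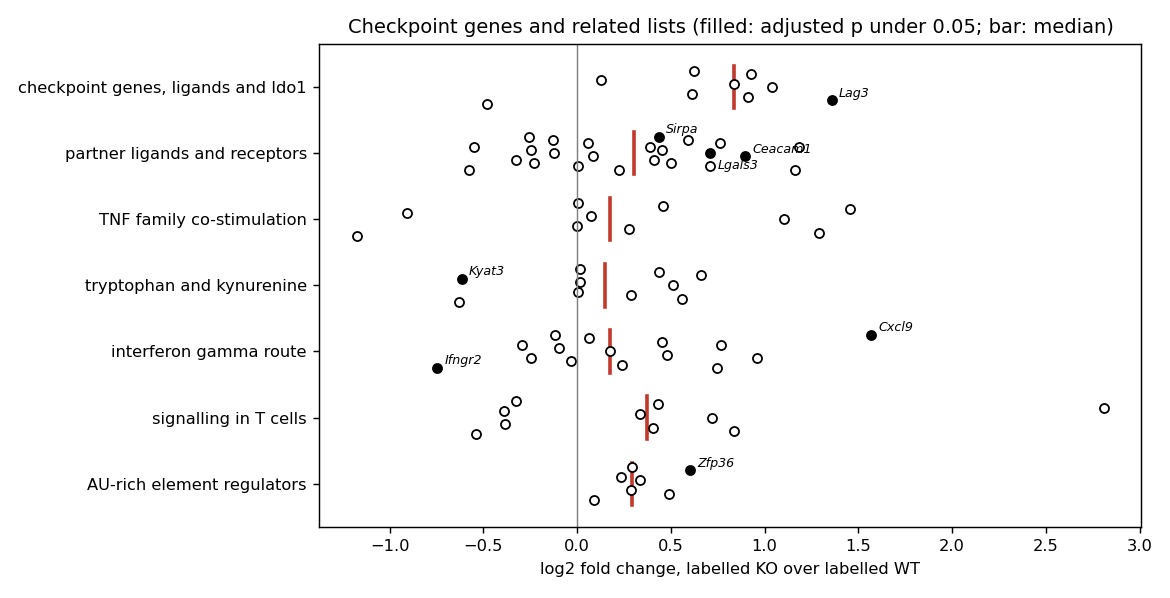
Log2 fold changes from edgeR (horizontal axis) of the 9 tested checkpoint genes and of 6 related gene lists, with each point a gene, filled points past an adjusted p under 0.05 and bars at the medians. The checkpoint genes have a median of 0.84, and the bars of the related lists lie between 0.15 and 0.37.

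The authors' deposited table of the 6 libraries gave the same directions, here with the sign turned to KO over WT. In the authors' deposited table Lag3 had a log2 fold change of 1.19 (adjusted p = 2.12e-04), Cd80 0.78 (adjusted p = 0.0394) and Ctla4 0.71 (adjusted p = 0.0465), and these were the 3 members under 0.05. Pdcd1lg2 and Ido1 had no adjusted p there. In the authors' deposited table of KO replicates 1 and 2 with WT replicates 1 and 3, only Lag3 stayed under 0.05 (adjusted p = 0.0429), and Tigit, Pdcd1lg2 and Ido1 had no adjusted p. In the authors' deposited table of the same KO replicates with WT replicates 2 and 3, Pdcd1 (1.61), Havcr2 (1.51), Lag3 (1.43) and Cd86 (0.77) were under 0.05, with adjusted p-values of 0.00328, 1.01e-05, 5.70e-04 and 0.0310. These 3 tables share libraries, and the 2 smaller ones differ only in holding WT replicate 1 or WT replicate 2. The share of all genes under 0.05 in the authors' deposited tables was not counted. In the fits made here, DESeq2 called 4288 of 16266 genes on the 6 libraries. With edgeR, 0 of 15898 were called on the libraries with WT replicates 1 and 3, and 5286 of 16002 with WT replicates 2 and 3. Cd274 stood at 0.11, 0.19 and 0.09 in the authors' deposited tables in that order.

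**Figure D5:**
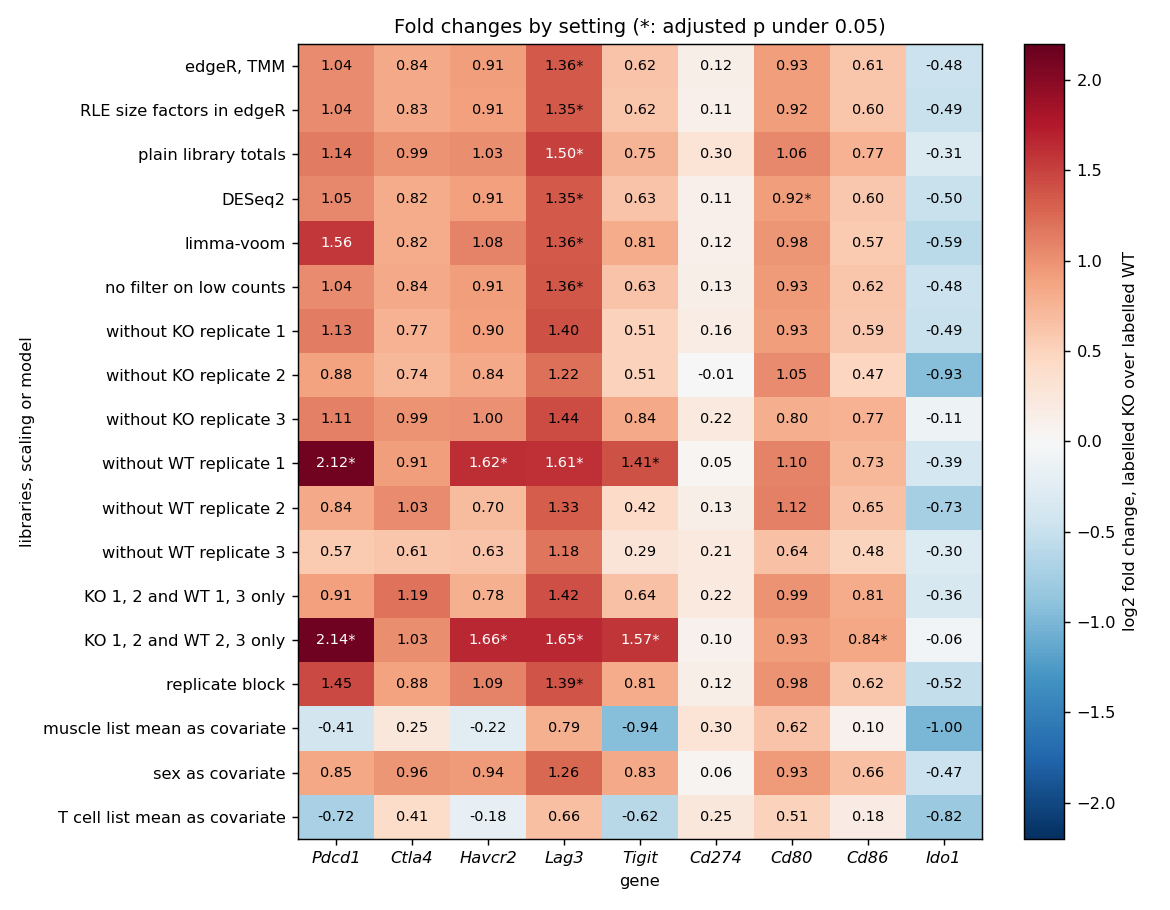
Log2 fold changes of the 9 tested genes (columns) under each choice of libraries, scaling or model (rows), in red for higher and blue for lower in the libraries labelled KO, with an asterisk for an adjusted p under 0.05. Lag3 is positive in each row, from 0.66 to 1.65, while Pdcd1, Havcr2 and Tigit turn negative with the muscle or T cell mean in the model.

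For the 7 genes with a mean of at least 1 CPM, the tested genes with the most similar profile over the 6 libraries were found by the root mean square difference of centred log2 CPM. Cd274 was closest to Alox5 (difference 0.0434), then to Cdc42ep5 and Clic3. Havcr2 was closest to Fyb (0.129), then to F730043M19Rik and Mcm6. Lag3 was closest to Srms (0.102), Pla2g4d and Scnn1g. Ctla4 was closest to Irx3 (0.0875), Alox12b and Plekhg1, and Pdcd1 to Saa1 (0.230), H2-M2 and 1700055N04Rik. Cd80 was closest to Rapgef5 (0.0891), D1Ertd622e and Slc20a1, and Cd86 to Kcnrg (0.0481), Jag1 and Taf4b. With 6 libraries and 14222 genes compared, close profiles describe these libraries only.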

How the data were processed

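RNA-seq gene counts of 6 tongues were used. The authors deposited 3 tables, 1 with all 6 libraries and 2 with 4 of them. Each holds raw read counts per gene and, per the file headers, the authors' mean normalised count (a signal), log2 fold change with its standard error, test statistic (a score), p-value and adjusted p-value. The submitters' processing notes name HTSeq, DESeq2, hg19 and mm10. Which step used which, and the aligner, annotation and strand setting, is not given in the sources used here, so an overlapping or antisense gene may share reads with its partner. Sample identifiers in the labels tied columns to samples. The labels do not say how replicates arose, and a p-value measures only the spread between these libraries. Those labelled KO include both sexes by their reads.

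The test was edgeR 4.0.16 under R 4.3.3 (filterByExpr with a minimum of 10 counts and 15 in total, TMM, robust quasi-likelihood fit with group as the only term, Benjamini-Hochberg adjustment over 15903 genes, threshold 0.05). Standard errors are the absolute log2 fold change over the root of F and are approximate. Intervals are at 95%. DESeq2 1.42.0, limma-voom (limma 3.58.1), other scalings, left-out libraries, covariates and a replicate block were alternatives. The tests were also run on simulated data. There the share of false calls lay above the threshold for edgeR, limma-voom and DESeq2, and was highest for DESeq2.

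The members and the gene lists were chosen with earlier results of these data known. Of 179 further listed genes, 5 were found through their gene identifier and 3 were absent. Named were Elavl1, the 10 members, the sex-linked genes, Cd3e, Cd68, Foxp3, Ifng, up to 6 called genes of each related list (or the 2 with the smallest adjusted p) and the 3 nearest profiles of each member with a mean of at least 1 CPM. Cd8b1, Cd6, Cd5, Cd14, Ikzf2, Epcam, Csf3r, Cxcr2, S100a8 and S100a9 were named in addition, after their values were seen. Gene coordinates are from RefSeq for GRCm38.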

Additional observations from a re-analysis of the deposited data

How the results depend on the processing

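The number of genes called over all genes was 1946 (765 higher, 1181 lower) and moved with most choices: 874 with plain library totals (406 higher, 468 lower), 4288 by DESeq2 (1854 higher, 2434 lower), 3817 with a replicate block, 0 with the muscle mean, 0 with sex and 0 with the T cell mean as covariate, 0 and 5286 in the 4-library tables with WT replicate 1 and with WT replicate 2, and from 0 (without KO replicate 2, where 1993 were higher and 2334 lower before adjustment at p under 0.05) to 5844 (without WT replicate 1) when 1 library was left out. Plain totals moved the median log2 fold change of all genes from 0.02 to 0.18. The single called member (Lag3) became 2 by DESeq2, 0 with each covariate, 0 and 5 in the 4-library tables, and 0 to 4 with 1 library left out. The 7 called genes of the related lists became 3 with plain totals, 13 by DESeq2, 13 with the replicate block, 0 with each covariate, 0 and 23 in the 4-library tables, and 0 to 27 with 1 library left out. The sign of the estimate changed for Pdcd1 (-0.41 and -0.72), Havcr2 (-0.22 and -0.18) and Tigit (-0.94 and -0.62) with the muscle and the T cell mean. It also changed for Cd274 without KO replicate 2 (-0.0071, in a range of -0.0071 to 0.22 with 1 library left out). Ctla4, Lag3, Cd80, Cd86 and Ido1 kept their sign in all 17 alternatives. The replicate block left Lag3 as the only called member (1.39, edgeR adjusted p = 0.0167). The numbers do not pair the samples: deviations from the group means correlated at 0.12, -0.16 and 0.19 for numbers 1, 2 and 3, and KO replicates 1 and 2 correlated best with another number. The cause of these changes was not tested.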
